A study of Capra hircus with 5 samples.

Results

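The sulfiredoxin activity unigenes are comp40376_c0_seq1 and comp39310_c0_seq2, the pair that the study placed in this Gene Ontology (GO) class and also listed as differently expressed in goat muscle after ovariectomy. They are 2 of the 118211 unigenes (assembled transcript sequences) in the deposited expression table. Their reads were higher in every ovariectomized library than in every control library, at a ratio of mean RPKM of 2.50 for both. Both were picked by the study from this contrast in these libraries, so the values are given as a description and no test is read from them.

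The muscle came from 5 female hybrid goats of a Boer goat sire and a Guan Zhong dairy goat dam, all given the same feed and about 5 months old at the start. The ovariectomized group (3 goats, libraries 2, 4 and 5) had the ovaries removed at the start, the control group (2 goats, libraries 1 and 3) was untreated, and all were slaughtered on day 50. The sample labels name the muscle longissimus thoracis and the paper longissimus dorsi, and 1 polyA RNA library was sequenced for each goat. The labels give no sham operation, so surgery and loss of the ovaries cannot be told apart. The deposited tables pair no unigene with a gene name, and the muscle was not checked against its marker genes.

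Sulfiredoxin is a small ATP-using enzyme that repairs peroxiredoxins. Peroxiredoxins break down hydrogen peroxide with a reactive cysteine, and when peroxide is in excess this cysteine is oxidised to a sulfinic acid that ordinary thiol reductants cannot reverse. Sulfiredoxin reduces it again, and its gene is a well-known target of the oxidative stress response. Working skeletal muscle forms hydrogen peroxide, so the cycle operates there too. In the goat RefSeq gene table (ARS1.2), 1 gene has the symbol SRXN1, the sulfiredoxin gene, and 6 genes have a peroxiredoxin symbol (PRDX). Neither unigene is paired with SRXN1 in the files. The class comes from the authors' annotation by sequence similarity, which also gave both unigenes the terms response to oxidative stress, ATP binding, DNA binding and cytosol.

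The counted reads totalled between 36738470 and 39504529 per library. Libraries 3 and 5 stood apart from the others: at least 1 read was found on 81922 unigenes in control 3 and 70704 in ovariectomized 5, against 91215 to 100053 in libraries 1, 2 and 4. Their TMM factors (edgeR's correction of the library size for composition) were 0.832 and 0.811, against 1.07 to 1.25 in the other libraries. Libraries 3 and 5 belong to different groups, and libraries 1, 2 and 4 also cover both, so the ratios are also given within each set.

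The longer unigene, comp40376_c0_seq1, is 2649 bp long, longer than 91.1% of the unigenes. The read counts of control goats 1 and 3 were 133 and 129, whereas ovariectomized goats 2, 4 and 5 gave 347, 361 and 255. As RPKM (reads scaled to the length of the unigene and the total of the library) its level was 1.27 and 1.29 in the controls and 3.44, 3.52 and 2.62 after ovariectomy. The control libraries were nearly equal, the ovariectomized libraries were all higher, and ovariectomized 5 was the lowest of them. The mean was 1.28 ± 0.0112 RPKM (SD, n = 2) in control and 3.19 ± 0.497 RPKM (SD, n = 3) in ovariectomized goats.

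The exact Poisson intervals (95%, counting error only) of comp40376_c0_seq1 ran up to 1.53 RPKM in control 3, the higher of the controls, and from 2.31 RPKM in ovariectomized 5, the lowest after ovariectomy. They did not overlap between the groups. Between the control libraries the coefficient of variation of the RPKM was 0.876%, smaller than the 8.74% that counting error alone gives at this depth. Over the ovariectomized libraries it was 15.6%, against 5.58% from counting error. After the TMM scaling described below, the coefficients were 20.9% in control and 9.82% in ovariectomized goats, so their order reversed. In bulk muscle, more cells that carry a transcript and more of it per cell cannot be told apart.

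The shorter unigene, comp39310_c0_seq2, is 877 bp long and had fewer reads. Control goats 1 and 3 gave 17 and 14 reads, whereas ovariectomized goats 2, 4 and 5 gave 40, 45 and 29. The RPKM was 0.491 and 0.422 in the controls and 1.20, 1.33 and 0.900 after ovariectomy. The groups did not overlap here either. The order of the ovariectomized libraries (4, then 2, then 5) was the same as for the longer unigene. Whether both unigenes come from the same gene was not tested, so this likeness is not read as a separate observation. The mean was 0.456 ± 0.0487 RPKM (SD, n = 2) in control and 1.14 ± 0.218 RPKM (SD, n = 3) in ovariectomized goats.

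With so few reads, the Poisson interval of comp39310_c0_seq2 in control 1 (0.286 to 0.786 RPKM) overlapped that in ovariectomized 5 (0.603 to 1.29 RPKM). Its coefficients of variation, 10.7% in control and 19.1% in ovariectomized goats, stood against 25.4% and 16.2% from counting error, so the controls lay closer together than counting alone gives and the ovariectomized goats little further apart. After TMM scaling the coefficients were 9.51% and 13.0%. Spread between animals beyond counting was therefore not resolved for this unigene at its depth.

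**Figure D1:**
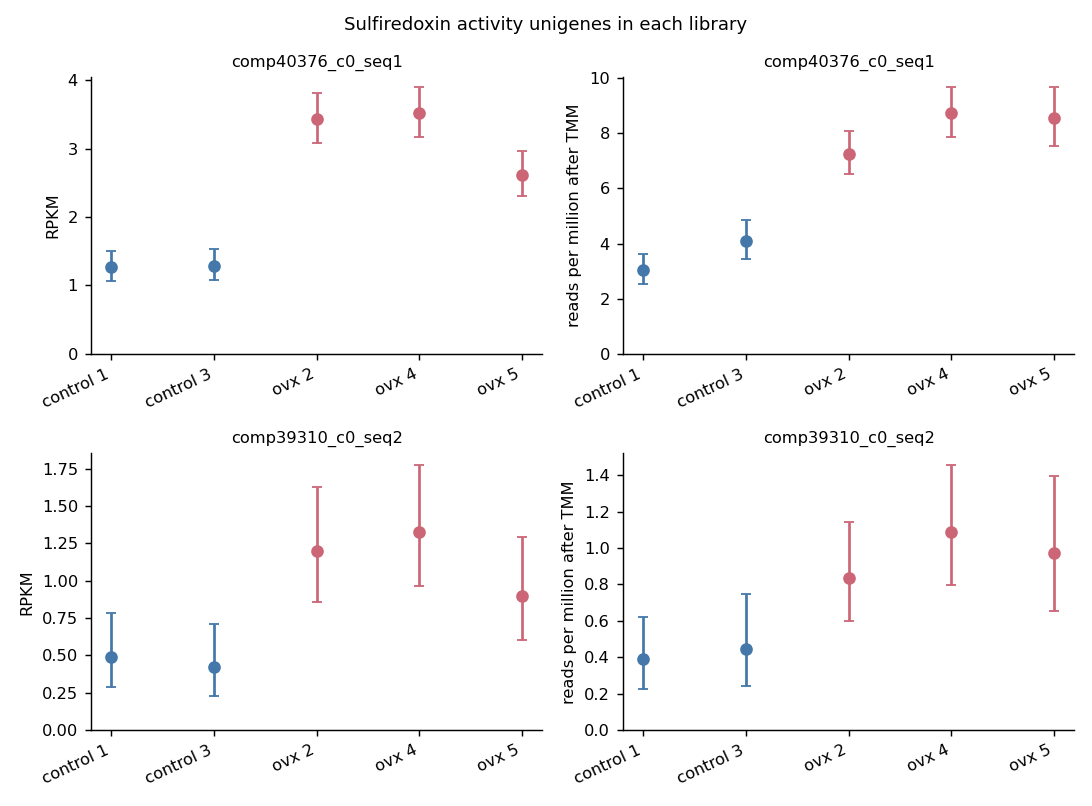
The level of each unigene in each library, as RPKM (left) and as CPM (reads scaled to the library total alone) after TMM scaling (right), with 95% exact Poisson intervals for counting error. Blue points are control and red points ovariectomized (ovx) libraries. In all 4 panels the 3 red points lie above both blue points, while the order within a group differs between the scales.

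Among all unigenes, those without a read included, both were at a middle to high level. In control 3, 30960 of the 81922 unigenes with a read had a higher RPKM than comp39310_c0_seq2. The RPKM of comp40376_c0_seq1 was above that of 84.2% to 92.1% of all unigenes, depending on the library, and that of comp39310_c0_seq2 above 68.5% to 85.0%. Both had at least 10 reads in every library, as did 28172 of the 118211 unigenes. The study's criterion, as rebuilt here, takes mostly unigenes of low count. The paper gives its thresholds but names no test for them. A ratio of mean RPKM over 2 with an unadjusted p under 0.05 in a test of unequal variance was met by 1612 unigenes. Upwards there were 718 (0.607% of all), and both numbers equal those in the paper. The highest count in a library had a median of 3 reads over the 1612. Of these, 10 had a higher maximum than the 361 reads of comp40376_c0_seq1, and 44 than the 45 reads of comp39310_c0_seq2. Only 39 of the 1612 had at least 10 reads in every library, and 31 of the 39 were higher after ovariectomy, both sulfiredoxin activity unigenes among them.

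Taken library against library, every one of the 6 RPKM ratios of an ovariectomized to a control goat was above 1 for each unigene. The ratios share libraries, and this only restates that the groups did not overlap. For comp40376_c0_seq1 they ran from 2.04 (ovariectomized 5 over control 3) to 2.77 (ovariectomized 4 over control 1). For comp39310_c0_seq2 they ran from 1.83 (ovariectomized 5 over control 1) to 3.14 (ovariectomized 4 over control 3). The lowest ratios of both came from ovariectomized 5. Within libraries 1, 2 and 4 the ratio was 2.74 for comp40376_c0_seq1 and 2.57 for comp39310_c0_seq2, and within libraries 3 and 5 it was 2.04 and 2.13.

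Groups that do not overlap were not rare. Of the 28172 unigenes with at least 10 reads in every library, 5.17% had every ovariectomized RPKM above every control RPKM, as both members did, and 2.13% had a mean RPKM over 2 times higher. Without that minimum the share was 5.01% of all unigenes, and it was 4.92% where the mean count had to reach 10. The rule that chose the members used this contrast, so nothing is read from their count. The median ratio of mean RPKM was 1.07 over the same unigenes, and 1% of them lay above 2.36. A larger ratio than that of comp40376_c0_seq1 was found in 212 of them (0.753%), and than that of comp39310_c0_seq2 in 210 (0.745%). The distance between the groups, from the highest control to the lowest ovariectomized library, was larger in 13 and 25 unigenes, and on the TMM scale described next in 20 and 13.

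**Figure D2:**
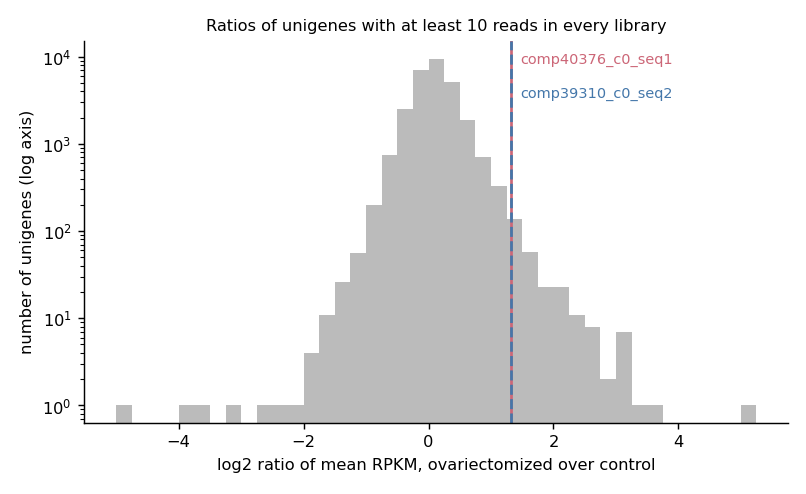
Histogram of the log2 ratio of mean RPKM (ovariectomized over control) over the 28172 unigenes with at least 10 reads in every library, with the number of unigenes on a log axis. The solid and dashed lines mark the sulfiredoxin activity unigenes, which both lie at 1.32, to the right of nearly all unigenes. The count minimum leaves out unigenes with few reads in either group.

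The scaling of the libraries changed the picture within the groups but not between them. In CPM after TMM scaling, comp40376_c0_seq1 stood at 3.04 in control 1 and 4.10 in control 3, whereas ovariectomized 2, 4 and 5 stood at 7.26, 8.74 and 8.56. On this scale control 3 was 1.35 times control 1, where the RPKM values had differed by 1.01 times, and ovariectomized 2 was the lowest of its group instead of ovariectomized 5. For comp39310_c0_seq2 the controls stood at 0.389 and 0.445 and the ovariectomized goats at 0.837, 1.09 and 0.973. The lowest ovariectomized library was 1.77 times the highest control for comp40376_c0_seq1 and 1.88 times for comp39310_c0_seq2. Groups apart in this direction on the TMM scale were found for 3.94% of the 28172 unigenes.

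The edgeR fit of the whole table gave a log2 fold change of 1.20 (standard error 0.46) for comp40376_c0_seq1 and 1.21 (standard error 0.73) for comp39310_c0_seq2. Each standard error was computed back from the fold change and the statistic of edgeR's test, whose spread is partly pooled over unigenes. Without the TMM factors the log2 fold changes were 1.32 and 1.32. TMM scaling moved the median log2 fold change of the 28172 unigenes by 0.107, from 0.09 to -0.01. Relative to that median, which takes the common shift out by construction, the members stood at 1.21 and 1.22 with TMM factors, and at 1.23 and 1.22 without them.

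After Benjamini-Hochberg adjustment over all unigenes by edgeR's quasi-likelihood test, 0 of the 2 unigenes had an adjusted p under 0.05, as against 106 of 118211 that were called higher (0.0897%). At an unadjusted p under 0.05 and a log2 fold change over 1 the fit took comp40376_c0_seq1 and left out comp39310_c0_seq2, with 0.765% of all unigenes passing in this direction. DESeq2 gave 0 after adjustment (0.0118% of all unigenes were called higher) and comp40376_c0_seq1 alone before it (0.272% in this direction). With edgeR's filterByExpr, which drops unigenes of low count, both passed the unadjusted threshold (0.420% of 39543 unigenes in this direction) and 0 passed the adjusted one, as no unigene did. Neither passed that threshold with limma on log2(RPKM + 0.1) (1.03% of all unigenes in this direction), with limma on log2(RPKM + 1) (0.0491%) or in edgeR without control 1 (0.741% of 115614 unigenes). In the limma fit on log2(RPKM + 1) the unadjusted p of both was under 0.05, but the log2 fold changes, 0.87 and 0.55, were not over 1. None of these calls is independent of how the members were chosen.

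Because both members were listed for a ratio over 2 in this contrast, the proportion between them was in large part held alike in the groups by that choice, and it is given as a description. The share of comp39310_c0_seq2 in the reads of both unigenes was 11.3% in control 1 and 9.79% in control 3. It was 10.3%, 11.1% and 10.2% in ovariectomized 2, 4 and 5. The exact Clopper-Pearson intervals (95%, counting error only) of the 5 libraries all overlapped, the widest from 5.46% to 15.9% in control 3 and from 6.74% to 17.5% in control 1. Summed over a group, the share was 10.6% in control (31 of 293 reads, 7.30% to 14.7%) and 10.6% in ovariectomized goats (114 of 1077 reads, 8.81% to 12.6%). The intervals also leave room for proportions that differ between the groups.

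Per length, comp40376_c0_seq1 stood at 2.82 ± 0.190 times the RPKM of comp39310_c0_seq2 (SD, n = 5 libraries), from 2.59 in control 1 to 3.05 in control 3. The mean of this ratio was 2.82 ± 0.326 in control (SD, n = 2) and 2.81 ± 0.137 in ovariectomized goats (SD, n = 3), which likewise follows in large part from ratios of mean RPKM of 2.50 for both. The deposited table holds no further unigene of either assembly component, so reads divided with a sister unigene of the same component were not seen there. How reads that match several unigenes were treated is not given in the sources used here. Whether the members share sequence or reads with each other, or come from the same gene, was not tested.

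**Figure D3:**
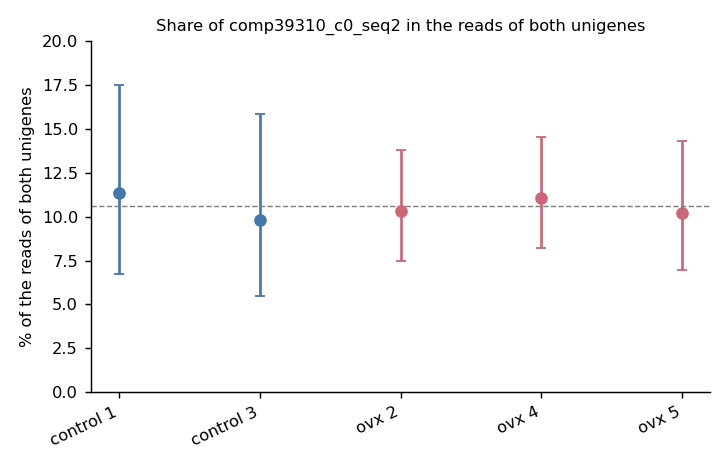
Share of comp39310_c0_seq2 in the summed reads of both sulfiredoxin activity unigenes, in percent, in each library with 95% Clopper-Pearson intervals. Blue points are control, red points ovariectomized (ovx) libraries, and the dashed line is the share over all reads. The points lie between 9.79% and 11.3%, and every interval includes the line.

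The profiles of the pair over the 5 libraries were also alike in detail. Likeness was measured as the root mean square difference of log2 CPM after TMM scaling, with each unigene set to a mean of 0 over the libraries. The distance between the members was 0.0979, against a median of 0.722 between comp40376_c0_seq1 and the other 28171 unigenes with at least 10 reads in every library. By this measure comp40376_c0_seq1 was the nearest of all to comp39310_c0_seq2, and comp39310_c0_seq2 the second nearest to comp40376_c0_seq1. Being chosen for the same difference between the groups brings such unigenes near each other. Among the 30 other unigenes that met the criterion upwards with at least 10 reads in every library, the distance to comp40376_c0_seq1 had a median of 0.264.

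Once each unigene was also set to 0 within each group, the distance between the members was 0.0895. Of the 28171 unigenes, 2.14% were then nearer to comp40376_c0_seq1 than the other member, and 2.39% were nearer to comp39310_c0_seq2. The median distances were 0.351 and 0.353. The p of the rule also rests on the spread within the groups, so these values are not independent of it. These are descriptions over 5 libraries, in which the members share the depth, the animals and possibly the gene.

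The unigene nearest to comp40376_c0_seq1 was comp20969_c0_seq1 (1878 bp, distance 0.0885), which the files pair with no gene name. The controls gave 429 and 443 of its reads, against 1202, 1155 and 964 from ovariectomized 2, 4 and 5, which again puts ovariectomized 5 lowest by reads. The third nearest to it, and the second nearest to comp39310_c0_seq2, was comp37170_c1_seq1 (1335 bp). Its reads were 25 and 19 in the controls, against 68, 62 and 47 after ovariectomy. The third nearest to comp39310_c0_seq2 was comp46814_c0_seq15 (1622 bp), with 17 and 14 control reads against 30, 40 and 25 after ovariectomy. On the scale of log2(RPKM + 0.1) comp46814_c0_seq15 ranked 11 from comp39310_c0_seq2, and comp39310_c0_seq2 took the place of comp20969_c0_seq1 as the nearest to comp40376_c0_seq1. All of them were higher in each ovariectomized library, as any unigene near the members must be.

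**Figure D4:**
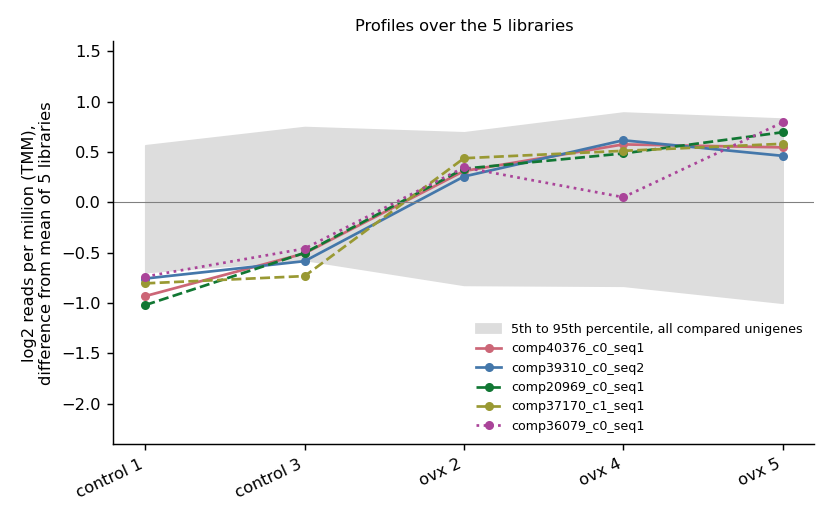
Log2 CPM after TMM scaling, as the difference from each unigene's mean over the 5 libraries (ovx, ovariectomized), for the members (solid), comp20969_c0_seq1 and comp37170_c1_seq1 (dashed) and the heme oxygenase unigene comp36079_c0_seq1 (dotted). The grey band spans the 5th to 95th percentile of the 28172 unigenes. The members run together, low in the controls and high after ovariectomy, while the heme oxygenase unigene drops in ovariectomized 4.

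Of 4 unigenes that the study lists in other classes, 3 of them with a gene symbol in its primer list, RPS6KA1, an ERK-activated kinase, ranked 6th by distance from comp40376_c0_seq1 and GSN, the actin-severing protein gelsolin, ranked 8th. Their mean RPKM was 2.15 and 2.17 times higher after ovariectomy. The neuromuscular junction unigene comp38745_c0_seq1 ranked 13th with a ratio of 2.04, and DUSP2, a MAP kinase phosphatase, ranked 32nd with a ratio of 2.57. From comp39310_c0_seq2 their ranks were 4 (RPS6KA1), 5 (comp38745_c0_seq1), 25 (GSN) and 92 (DUSP2). These 4 were listed by the study from the same contrast as the members, which by itself brings them near. Nothing is read from their ranks.

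Sulfiredoxin belongs to the oxidoreductases, enzymes that transfer electrons. The study's GO assignments place 11 other listed unigenes under a term for an oxidoreductase enzyme. As they were listed from this contrast, their groups do not overlap by choice: 7 were higher and 4 lower after ovariectomy. Of all unigenes, 5.01% lay apart upwards and 5.19% downwards, and nothing is read from the counts of the list. Depth set most of them apart from the sulfiredoxin activity unigenes. In 7 of the 11 no library had 10 reads, and the highest count had a median of 4, against 361 and 45 for the members. The median fitted log2 fold change was 1.03, and 0.00 with the 5 unigenes that had no reads in a group set at the limit that 3 reads allow. Over all unigenes the median was -0.03.

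Nearest in kind is comp36079_c0_seq1 (1538 bp), of the heme oxygenase class, an enzyme that degrades heme and whose inducible form is likewise a known target of the oxidative stress response. The controls gave 254 and 222 reads of it, against 591, 416 and 503 from ovariectomized 2, 4 and 5. The mean was 4.0 ± 0.259 RPKM (SD, n = 2) in control and 8.66 ± 1.56 RPKM (SD, n = 3) after ovariectomy, a ratio of 2.17. All ovariectomized libraries were higher, with ovariectomized 4, the highest library for the members, as the lowest here. It ranked 42nd in distance from comp40376_c0_seq1 and 107th from comp39310_c0_seq2.

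The aldehyde dehydrogenase unigene comp36417_c0_seq1 (1986 bp), of a class that oxidises aldehydes, was counted 119 and 80 times in the controls, against 171, 180 and 239 times after ovariectomy. Its mean RPKM was 2.03 times higher in ovariectomized goats, with ovariectomized 5 as the highest library.

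The ribonucleoside-diphosphate reductase unigene comp22075_c0_seq1 makes deoxynucleotides for DNA synthesis by its class. It lay the other way, with 25 and 23 control reads against 9, 5 and 3 after ovariectomy. In comp40985_c0_seq16, labelled only oxidoreductase activity, the controls gave 43 and 41 reads, against 20, 21 and 13 from the ovariectomized goats. Of these, comp22075_c0_seq1 reached 10 reads only in the controls.

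The remaining 7 had at most 5 reads in any library. They carried the terms choline dehydrogenase, proline dehydrogenase, tryptophan 2,3-dioxygenase, cholestanetriol 26-monooxygenase, retinol dehydrogenase, formyltetrahydrofolate dehydrogenase and cytochrome-c oxidase. In 4 of them no library of either group had more than 3 reads, the limit that a count of 0 allows, so differences in them cannot be seen with so few reads.

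By edgeR's quasi-likelihood test 0 of the 11 had an adjusted p under 0.05 (0.446% of all unigenes did), and 3 had an unadjusted p under 0.05 with an absolute log2 fold change over 1 (2.60% of all unigenes). DESeq2 gave 0 and 3 of the 11, with 0.0364% and 0.673% of all unigenes passing. The 3 in edgeR were the heme oxygenase, aldehyde dehydrogenase and ribonucleoside-diphosphate reductase unigenes. With filterByExpr, which kept 4 of the 11, the counts were 0 and 4, with 0 and 0.743% of 39543 unigenes passing. At the unadjusted threshold with the same fold, 7 of the 11 passed with limma on log2(RPKM + 0.1) (2.62% of all unigenes) and 0 with limma on log2(RPKM + 1) (0.0998%). With limma on log2(RPKM + 1), 4 of the 11 had an unadjusted p under 0.05 at a smaller fold change. After adjustment these limma fits called 0 and 6 of all 118211 unigenes, and none of the 11. The list was chosen by the study on these libraries and is not independent evidence of any direction.

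**Figure D5:**
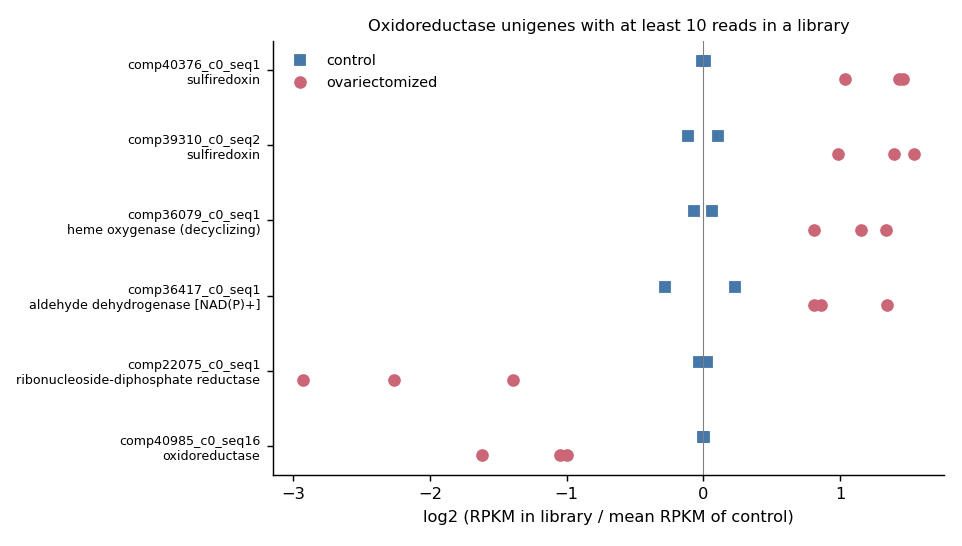
Log2 of the RPKM in each library over the mean RPKM of the control libraries, for the 6 oxidoreductase unigenes with at least 10 reads in a library, named with their GO term. Blue squares are control and red circles ovariectomized libraries. The sulfiredoxin, heme oxygenase and aldehyde dehydrogenase unigenes lie to the right of their controls, and the other pair to the left, where comp22075_c0_seq1 reaches 10 reads in the controls only.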

How the data were processed

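Muscle RNA-seq libraries (2 control goats, 3 ovariectomized goats) were grouped by the sample labels. Before deposit, the authors cleaned the reads, built unigenes de novo in Trinity, and quantified them by single-end alignment in Bowtie 0.12.8. No genome was used, so unigenes have no position. Per unigene, the authors deposited read counts, RPKM (equal to the count over the length and the library's total count), the length in bp, and a p-value column and a yes-or-no FDR column of their own comparison, which were not used. A second table was identical in its 12 shared columns.

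All 118211 unigenes were fitted with edgeR 4.0.16 in R 4.3.3 (TMM, two-sided quasi-likelihood test, p adjusted by Benjamini-Hochberg). Alternatives used DESeq2 1.42.0, other filters, limma 3.58.1 on log2(RPKM + 0.1) and log2(RPKM + 1), and left out each library. The edgeR and DESeq2 fits were tried on simulated data with larger fold changes than those of the members and the same spread for all unigenes. Fold changes of the members' size were not covered. Totals of 36738470 to 39504529 reads bound the precision. A count of 0 allows up to 3 reads. PCR duplicates are not separated, so intervals cover counting error only. Each library is a separate goat, so p-values refer to these animals, but the spread used is partly pooled over the unigenes fitted. The edgeR standard error of comp39310_c0_seq2 was 0.73 with all unigenes. It was 0.51 with filterByExpr and 0.38 with at least 10 counts in every library. The members and lists were chosen with earlier results of these data known. Named unigenes are the members, the 3 nearest to each in profile, 11 other oxidoreductases of the study's GO table, and 4 unigenes of other classes. Intervals came from scipy 1.17.1, tables from pandas 2.3.3 and figures from matplotlib 3.10.9, under Python 3.11.15.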

Additional observations from a re-analysis of the deposited data

How the results depend on the processing

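The log2 fold change of comp40376_c0_seq1 stayed above 0 in every alternative run. It was 0.87 with limma on log2(RPKM + 1), where the pseudocount shrinks low values, and, as the log2 ratio of TMM-scaled CPM, 1.40 in libraries 1, 2 and 4 alone and 1.06 in libraries 3 and 5 alone. As the log2 ratio of mean RPKM without TMM, an alternative added after seeing the data, libraries 3 and 5 alone gave 1.03, against 1.32 over all 5 libraries, and comp39310_c0_seq2 gave 1.09, against 1.32. Leaving out 1 library gave 0.997 (without control 1) to 1.43 (without control 3), with 1 control library left that is assumed to vary like the others. For comp39310_c0_seq2 it was 0.55 with limma on log2(RPKM + 1), and between 1.11 and 1.33 with 1 library left out. All other alternatives moved either value by less than 1 SD between replicates. For comp40376_c0_seq1 the unadjusted p was no longer under 0.05 without control 1 or with limma on log2(RPKM + 0.1).

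The number of unigenes with an adjusted p under 0.05, 527 in edgeR, was 43 with DESeq2, 122 without TMM factors, 6 with limma on log2(RPKM + 1), and 0 with limma on log2(RPKM + 0.1), with filterByExpr, with at least 10 counts in every library, and with filterByExpr plus a term for libraries 3 and 5, which was added after seeing the data. Leaving out 1 library gave 117 (without control 1) to 681. The number past the unadjusted threshold, 3077 in edgeR, was 796 with DESeq2, 294 with filterByExpr, 197 with at least 10 counts in every library, 118 with limma on log2(RPKM + 1) and 463 in the added fit. Leaving out 1 library gave 2107 to 3902. The causes were not tested. With counts summed per assembly component the members stood at 1.19 and 1.20. The planned comparison with other unigenes of their components gave no value, as the table holds none. No paired analysis was possible because the groups share no replicate number. With 14 and 17 control reads, counting error is wide for comp39310_c0_seq2.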
